A study of Mus musculus with 24 samples.

Results

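The 10 genes described here mark the temporal identity of neural progenitors and the switch to making glia. They were taken by symbol from the count tables, where all 10 were present among 26411 genes. There were 6 early genes, namely *Hmga2*, *Lin28a*, *Lin28b*, *Igf2bp1*, *Igf2bp2* and *Igf2bp3*, and 4 late genes, namely *Nfia*, *Nfib*, *Nfix* and *Zbtb20*. Messenger RNA was sequenced in cultured neural stem and progenitor cells (NSPCs) from the dorsal telencephalon, which forms the cortex, of C57BL/6 mouse embryos at E12.5. The embryos came from *Kat6a*+/– intercrosses and were *Kat6a*+/+, *Kat6a*+/– or *Kat6a*–/–. *Kat6a* encodes a histone acetyltransferase, and its null allele lacks exons and ends early, within the part that encodes the catalytic domain. All cultures had been expanded in growth factor medium under neurosphere conditions, frozen after a few passages and thawed before use. Per the paper, *Kat6a*+/– colonies were smaller and tended to attach. *Kat6a*–/– cells formed few floating colonies and attached to the plastic, so growth form differed between genotypes. Proliferating NSPCs stayed in medium with FGF2 and EGF for 3 days, and differentiating NSPCs spent 3 days on poly-L-ornithine and laminin with foetal bovine serum in place of the growth factors. There were 24 libraries in 6 groups of 4, one for each genotype and condition.

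Progenitors of the embryonic cortex first make neurons and later make astrocytes and oligodendrocytes. Early progenitors express the chromatin protein HMGA2, the LIN28 proteins, which block maturation of let-7 microRNAs, and the IGF2BP proteins, which bind and stabilise messenger RNAs. As let-7 accumulates, these early transcripts decline, while the transcription factors NFIA, NFIB, NFIX and ZBTB20, which promote glial genes and astrocyte formation, increase.

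The early transcripts are known let-7 targets, and the sequences through which let-7 pairs with them are shown because they link the early genes to one microRNA family. RefSeq (GRCm38.p6) listed 25 mature mouse microRNAs named let-7 or miR-98, of which 12 carried the seed GAGGUAG (bases 2 to 8), with 10 different sequences. Capitals mark the seed in 4 of them, written 5′ to 3′.
mmu-let-7a-5p: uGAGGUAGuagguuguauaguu
mmu-let-7b-5p: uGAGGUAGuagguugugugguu
mmu-let-7i-5p: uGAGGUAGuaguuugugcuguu
mmu-miR-98-5p: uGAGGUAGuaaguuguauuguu
The reverse complement of this seed, CTACCTC, was searched on the sense strand of 3′ UTRs of 18367 protein-coding transcripts of GENCODE vM39 (GRCm39), 1 per gene. It was found in 10.4% of them, and at 2 or more positions in 1.39%. All 6 early genes held it, with 4 matches each in *Hmga2*, *Lin28b* and *Igf2bp1*, 2 in *Lin28a* and 1 each in *Igf2bp2* and *Igf2bp3*. Of the late genes, *Nfia* held 1 match, and *Nfib*, *Nfix* and *Zbtb20* held none. Long 3′ UTRs hold more matches, and among transcripts within 25% of the *Hmga2* 3′ UTR length of 2984 bases 16.6% held the motif. For lengths near that of *Igf2bp2* this share was 11.6%, and for lengths near that of *Nfia* it was 37%. A match describes the letters only.

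The matches closest to the stop codon in *Hmga2* and *Lin28b*, the single matches of *Igf2bp2*, *Igf2bp3* and *Nfia*, and the first match of *Igf2bp1* are given with capitals at the 7 bases that pair with the seed (GRCm39).
*Hmga2*, chr10:120200124-120200149, minus strand: cgacattcaatttCTACCTCagcatc
*Lin28b*, chr10:45257113-45257138, minus strand: ccgggcgggaagtCTACCTCatgcaa
*Igf2bp1*, chr11:95852599-95852624, minus strand: tgtgcgaagtaaaCTACCTCaaggtg
*Igf2bp2*, chr16:21878218-21878243, minus strand: acacaaataaaagCTACCTCaggtgt
*Igf2bp3*, chr6:49063716-49063741, minus strand: catttttactcaaCTACCTCaggtat
*Nfia*, chr4:98006157-98006182, plus strand: tacaggagaagtgCTACCTCtgatct
In the 5 windows of early genes shown, the base after the match was an A, a form usually taken as the stronger site. The other matches of *Hmga2* and *Lin28b* and the match of *Nfia* had no A there.

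Total counts per library ranged from 7826660 to 40838203. Values are given in CPM, the usual read count scaled to a common library size by the library total and its TMM factor. There were 5 litters among the proliferating and 7 among the differentiating cultures, and 6 embryos were sequenced in both conditions by their labels. The labels of *Kat6a*+/+ replicate 2 in the 2 conditions name litters that differ only in the order of digits, and these were kept apart as labelled. In each condition 3 *Kat6a*+/+, 1 *Kat6a*+/– and 1 *Kat6a*–/– embryos were male by Y-linked reads, so sex was uneven between genotypes. RNA was purified with a different kit in each condition, and the effects of kit and condition cannot be told apart. *Kat6a* counts covered the whole gene and did not separate the deleted exons. They averaged 389 ± 16.3 CPM in proliferating *Kat6a*+/+ and 349 ± 24.1 CPM in *Kat6a*–/– NSPCs (SD, n = 4), which does not check the labels. The progenitor genes *Nes*, *Sox2* and *Vim* were present in every library, whereas *Emx1*, a dorsal telencephalic marker, stayed at or below 0.255 CPM in all 24 libraries. In bulk RNA, fewer cells that express a gene and less of its RNA per cell cannot be told apart.

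Levels per kilobase of transcript showed which members dominated (CPM per kb, means of 4 libraries). In proliferating *Kat6a*+/+ NSPCs, *Nfib* stood at 40.4 ± 1.88, *Igf2bp3* at 27.98 ± 3.83, *Igf2bp2* at 25.2 ± 2.81, *Nfia* at 21.91 ± 2.25, *Nfix* at 16.2 ± 2.498 and *Hmga2* at 11.95 ± 1.54 (SD, n = 4). *Zbtb20* was at 1.17 ± 0.174, *Lin28b* at 0.173 ± 0.0216 and *Igf2bp1* at 0.1197 ± 0.150, and *Lin28a* had no read (3 reads, the limit that a count of 0 allows, are 0.0746 to 0.380 CPM over the libraries). The intervals of mean ± SD overlapped for *Igf2bp3* and *Igf2bp2*, for *Igf2bp2* and *Nfia*, narrowly for *Igf2bp3* and *Nfia*, and for *Lin28b* and *Igf2bp1*. These cultures held both early and late transcripts, with *Lin28a* and *Lin28b* close to the detection limit. Bulk RNA does not show whether the same cells carried both. In differentiating *Kat6a*+/+ NSPCs the order was *Nfix* at 84.4 ± 6.43, *Nfib* at 41.9 ± 2.51, *Nfia* at 22.2 ± 3.01, *Zbtb20* at 11.3 ± 1.73, *Igf2bp2* at 6.06 ± 0.976, *Igf2bp3* at 5.43 ± 1.03 and *Hmga2* at 0.103 ± 0.0993. *Igf2bp2* and *Igf2bp3* did not differ beyond their SDs there.

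**Figure D1:**
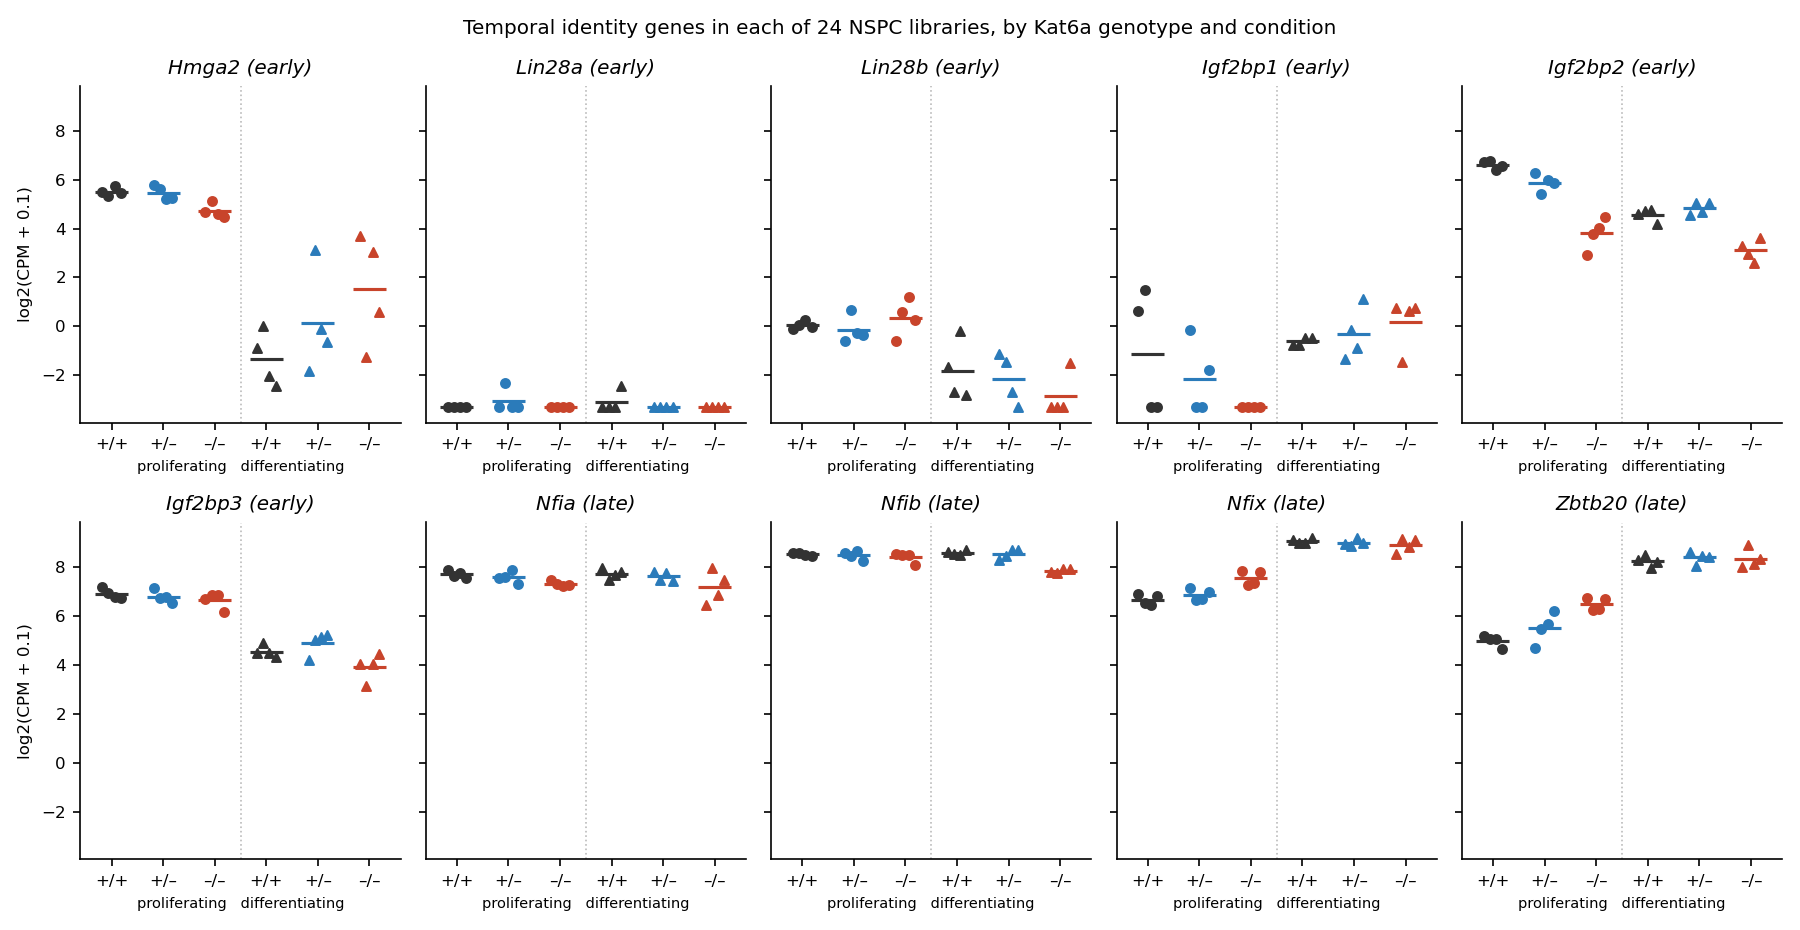
Each panel plots 1 gene on a scale of log2(CPM + 0.1), with 1 point per library (circles, proliferating; triangles, differentiating), a horizontal line at the mean of the 4 libraries on that scale and *Kat6a* genotype on the x axis. *Igf2bp2* is lowest in *Kat6a*–/– cells of both conditions, *Nfix* and *Zbtb20* are higher in proliferating *Kat6a*–/– than in *Kat6a*+/+ cells, and *Hmga2* spreads widely among the differentiating *Kat6a*–/– libraries.

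In proliferating NSPCs, loss of both *Kat6a* alleles went with lower RNA of *Hmga2*, *Igf2bp2* and *Nfia* and with higher RNA of *Nfix* and *Zbtb20*. Of the 4 early genes that passed the expression filter, 2 were lower and none higher, and of the 4 late genes 2 were higher and 1 lower (false discovery rate, FDR, under 0.05 by limma with Benjamini-Hochberg adjustment over 12276 genes). Across all tested genes 30.0% were called in this comparison, 16.2% higher and 13.8% lower. The median log2 fold-change was −0.46 over the 4 early and 0.45 over the 4 late genes tested, beside −0.0045 over all genes. *Lin28a* and *Igf2bp1* did not pass the filter. These 5 calls were made under every alternative fit and without each library in turn.

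In differentiating NSPCs, *Igf2bp2* and *Nfib* were lower in *Kat6a*–/– than in *Kat6a*+/+ cells, with no overlap of the libraries. A further 4 of the 8 members that passed the filter were called when libraries were weighted by quality: *Nfia* and *Nfix* lower, and *Hmga2* and *Igf2bp1* higher. The share called was 54.4% over all 13339 genes in the test (26.7% higher, 27.7% lower). Under these weights *Kat6a*–/– replicate 3 carried 69% and replicate 2 carried 4.22% of the weight of their group. Without the weights, 23.2% of genes and 2 of the 8 tested members were called, and these were *Igf2bp2* and *Nfib*. The same number was called without *Kat6a*–/– replicate 1 and without replicate 3. Over all genes, calls fell from 7258 to 1212 and 939 in these fits, respectively. Libraries of these genotypes did not overlap for 26.8% of all tested genes, and those of *Kat6a*–/– and *Kat6a*+/– cells did not for 16.2%. Of 6 neuron markers tested, 3 were lower and 1 higher in *Kat6a*–/– cells, and 2 and 1 without the weights. *Dcx* (log2 fold-change −4.51, and −3.36 without the weights) and *Elavl4* (−3.98 and −3.28) were lower in both fits. *Stmn2* was higher in both (2.44 and 3.39). The part of neurons in the values of the members was not tested.

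*Kat6a*+/– NSPCs gave no call among the 8 tested members in either condition, and limma called 0% of all genes against *Kat6a*+/+. edgeR called no gene in either condition, and DESeq2 called 28 genes in proliferating and 8 in differentiating cells, none of them a member. At an unadjusted p under 0.05, 7.43% of genes passed in proliferating and 14.4% in differentiating cells, among them *Igf2bp2* in the former (log2 fold-change −0.66, FDR 0.394) and *Zbtb20* in the latter (0.30, FDR 0.331). *Kat6a*–/– differed from *Kat6a*+/– cells in *Hmga2* (−0.72), *Igf2bp2* (−1.97), *Nfix* (0.74) and *Zbtb20* (1.02) in proliferating cells, where 14.8% of genes were called (8.47% higher, 6.30% lower). In differentiating cells, where 37.5% were called (19.1% higher, 18.5% lower), 5 members differed: *Hmga2* was higher (3.32), and *Igf2bp2* (−1.92), *Igf2bp3* (−0.62), *Nfia* (−0.80) and *Nfib* (−0.55) were lower. Of these 5, *Igf2bp2* was called in every alternative fit. *Nfib* lost its call without *Kat6a*–/– replicate 1 (FDR 0.0870) or 3 (FDR 0.0941), *Hmga2* and *Nfia* lost theirs without the quality weights (FDR 0.483 and 0.294), and *Igf2bp3* was at the threshold (FDR 0.0490). Without *Kat6a*–/– replicate 1 or 3 only *Igf2bp2* was left, while calls over all genes fell from 5007 to 345 or 243. In proliferating cells *Zbtb20* lost its call without *Kat6a*–/– replicate 4 (0.99, FDR 0.0501). The comparisons with *Kat6a*+/+ and with *Kat6a*+/– share the *Kat6a*–/– libraries.

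**Figure D2:**
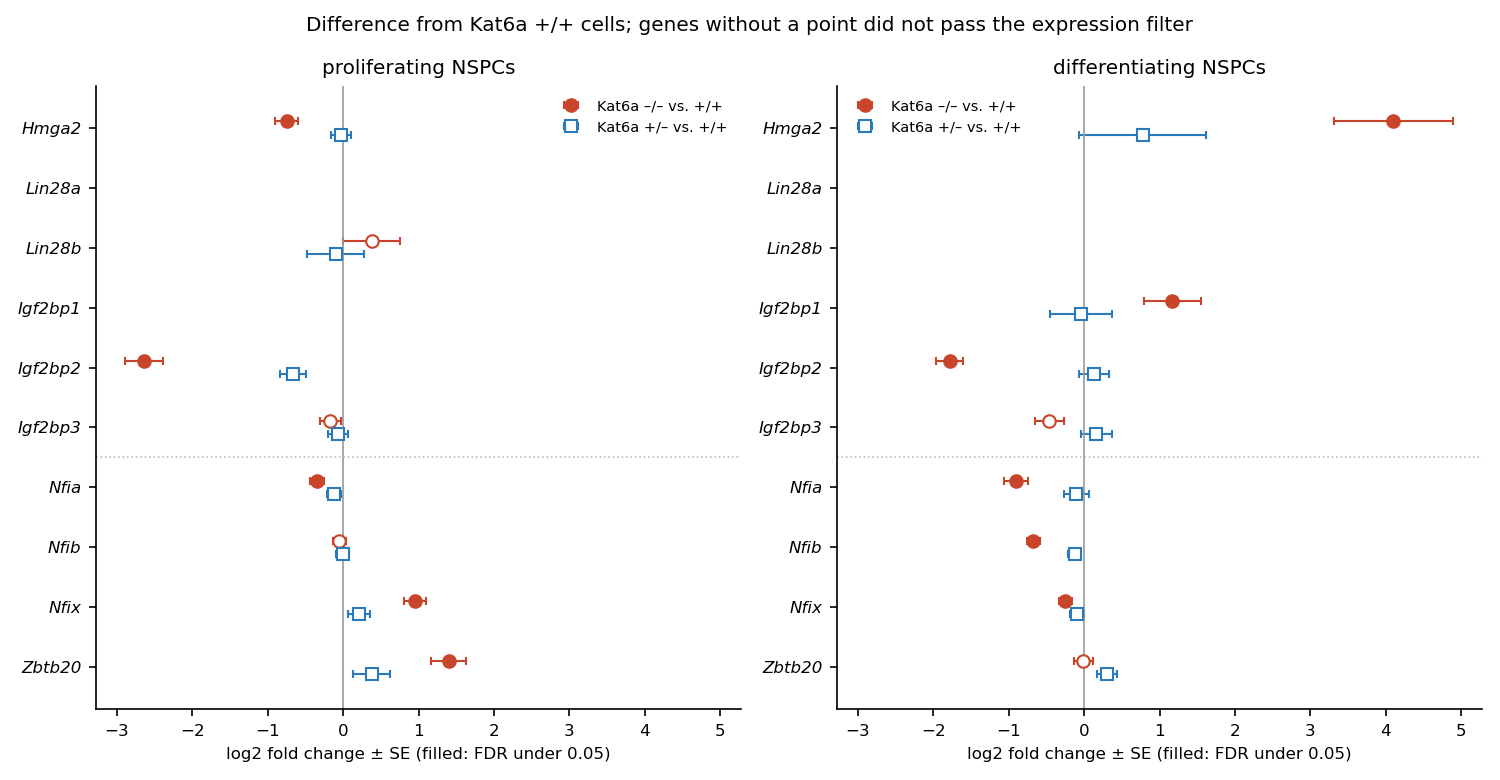
Fitted log2 fold-changes with standard errors (x axis) of *Kat6a*–/– (circles) and *Kat6a*+/– (squares) against *Kat6a*+/+ NSPCs are drawn for each member (y axis), for proliferating cells on the left and differentiating cells on the right, with filled symbols at an FDR under 0.05. *Igf2bp2* lies at −2.64 and −1.78 in *Kat6a*–/– cells of the respective conditions, and no *Kat6a*+/– symbol is filled.

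*Hmga2* (Entrez 15364, chromosome 10, 120197173 to 120313095, minus strand) encodes a DNA-bending chromatin protein of young neural stem cells. In proliferating cells it was at 45.3, 39.9, 53.7 and 43.5 CPM in the *Kat6a*+/+ libraries, at 54.2, 49.6, 37.3 and 37.6 CPM in the *Kat6a*+/– libraries and at 25.3, 34.8, 24.3 and 22.2 CPM in the *Kat6a*–/– libraries. All *Kat6a*–/– libraries lay below all others. Over all tested genes, *Kat6a*–/– and *Kat6a*+/+ libraries did not overlap in 31.3%, and *Kat6a*–/– and *Kat6a*+/– libraries did not in 12.3%. The log2 fold-change in *Kat6a*–/– vs. *Kat6a*+/+ was −0.75 (SE 0.15, FDR 0.00288), a mean level at 58.4% of *Kat6a*+/+. Within the 2 litters that held both genotypes, the difference was −0.85 and −0.84 on the log2 scale. In differentiating cells the *Kat6a*+/+ libraries held 0.434, 0.913, 0.143 and 0.0828 CPM, the *Kat6a*+/– libraries 0.177, 8.65, 0.822 and 0.531 CPM, and the *Kat6a*–/– libraries 12.9, 0.314, 8.10 and 1.40 CPM. The groups overlapped, because *Kat6a*–/– replicate 2 lay within the range of *Kat6a*+/+ and 1 *Kat6a*+/– library lay above *Kat6a*–/– replicate 3. The fitted log2 fold-change was 4.10 (SE 0.79, FDR 9.19e-04), but without the quality weights it was 2.82 (FDR 0.110). DESeq2 called it (FDR 0.00507) and edgeR did not (FDR 0.0597). The call was also lost without *Kat6a*–/– replicate 1 (2.19, FDR 0.410) and without replicate 3 (1.91, FDR 0.532).

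*Hmga2* in differentiating cells moved with markers of mesenchymal and meningeal cells. The summed level of 10 such markers was 123 to 167 CPM in *Kat6a*+/+ and 164 to 279 CPM in *Kat6a*+/– libraries. In *Kat6a*–/– replicates 1 to 4 it was 566.5, 162, 531 and 383 CPM, so that the libraries with the most *Hmga2* were those with the highest sums in their genotype, also in *Kat6a*+/– (replicate 2, 279 CPM). All 5 markers that passed the filter were higher in *Kat6a*–/– cells, beside 26.7% of all genes. Without the weights 2 were higher, and 23.2% of all genes were called. Most of the *Kat6a*–/– sum was *Col1a1* (6.11 CPM in *Kat6a*+/+ against 106 CPM) and *Prrx1* (94.2 against 223 CPM). *Prrx1* alone was most of the *Kat6a*+/+ sum, and it averaged 94.6 CPM in proliferating *Kat6a*+/+ cells too. The defining markers *Lum* and *Twist2* were at or near 0 in every library (at most 0.109 and 0.204 CPM), and *Col3a1* and *Dcn* stayed below 1 CPM (at most 0.791 and 0.952). In proliferating cells the sums overlapped, at 106 to 127.5 CPM in the *Kat6a*+/+ libraries and 112 to 164 CPM in those of *Kat6a*–/– cells. The part of these cells or genes in the *Hmga2* values was not tested.

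**Figure D3:**
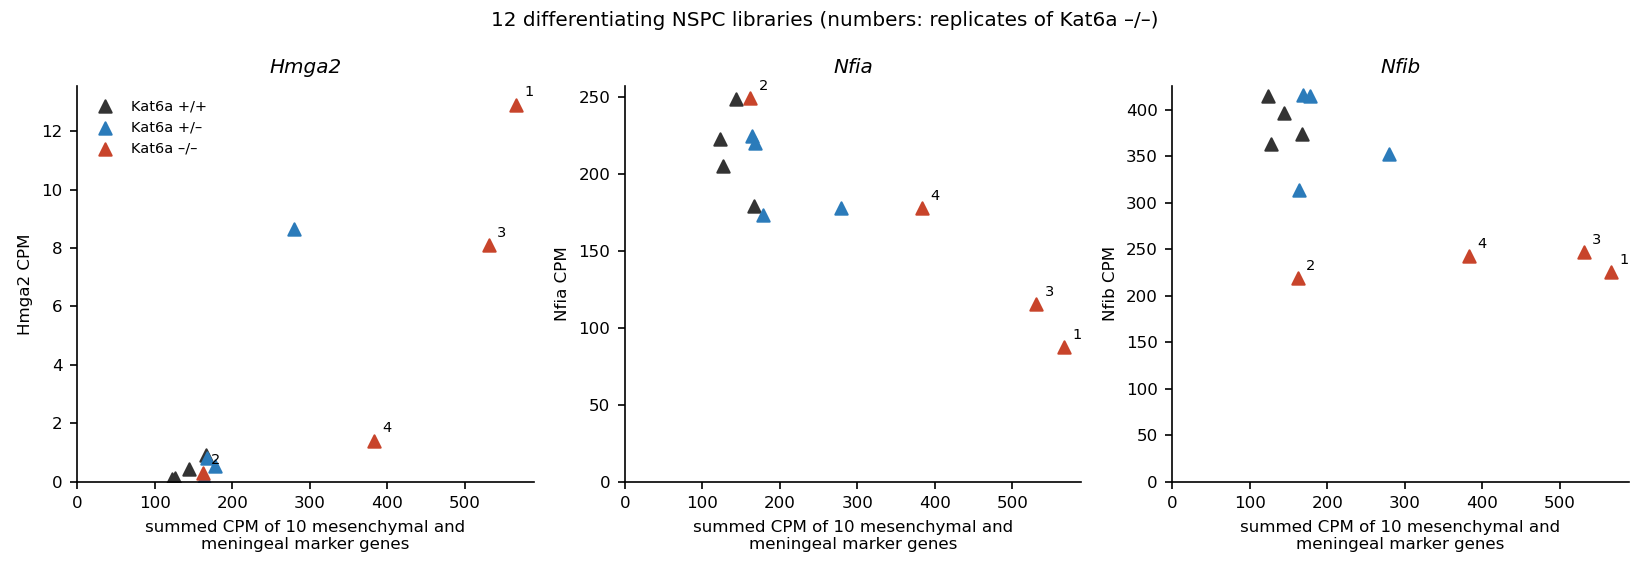
Each point is 1 of 12 differentiating libraries, with the summed CPM of 10 mesenchymal and meningeal markers on the x axis and the CPM of *Hmga2*, *Nfia* or *Nfib* on the y axis, coloured by genotype and numbered for *Kat6a*–/–. *Kat6a*–/– replicates 1 and 3 combine sums of 566.5 and 531 CPM with the highest *Hmga2* and lowest *Nfia* of their group, whereas *Nfib* is between 219 and 246 CPM in all 4 *Kat6a*–/– libraries.

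*Lin28b* and *Lin28a*, which encode RNA-binding proteins that stop let-7 precursors from being processed, were scarce. *Lin28a* (Entrez 83557, chromosome 4) had 3 reads in all 24 libraries. *Lin28b* (Entrez 380669, chromosome 10, 45252646 to 45362557, minus strand) was at 0.820, 0.947, 1.09 and 0.875 CPM in the proliferating *Kat6a*+/+ libraries, at 0.554, 1.48, 0.723 and 0.672 CPM in the *Kat6a*+/– libraries and at 0.557, 1.39, 2.16 and 1.08 CPM in the *Kat6a*–/– libraries. These groups overlapped, and the log2 fold-change in *Kat6a*–/– vs. *Kat6a*+/+ was 0.38 (SE 0.38, FDR 0.470). In differentiating cells 4 reads remained over the 4 *Kat6a*–/– libraries, 3 of which had none, against 22 reads in *Kat6a*+/+, and the groups were compared by an exact permutation test of CPM (two-sided p = 0.2, n = 4 per group, where 0.0286 is the smallest p this design allows). A difference in *Lin28b* was not detectable at this depth.

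Of the 3 IGF2BP genes, which encode RNA-binding proteins that protect their target mRNAs from decay, *Igf2bp2* had the largest fitted difference between *Kat6a*–/– and *Kat6a*+/+ cells in each condition. *Igf2bp2* (Entrez 319765, chromosome 16, 21877759 to 21982499, minus strand) was at 105, 109, 84.5 and 94.5 CPM in the proliferating *Kat6a*+/+ libraries, at 77.3, 42.4, 63.3 and 57.7 CPM in the *Kat6a*+/– libraries and at 7.46, 13.7, 16.1 and 22.4 CPM in the *Kat6a*–/– libraries. The 3 genotypes formed 3 separate ranges, with *Kat6a*+/– in between at 61.3% and *Kat6a*–/– at 15.2% of the *Kat6a*+/+ mean. The *Kat6a*–/– vs. *Kat6a*+/+ log2 fold-change was −2.64 (SE 0.25, FDR 2.85e-05), rank 79 by size among 12276 genes. The difference of *Kat6a*+/– from *Kat6a*+/+ did not pass the FDR (−0.66, SE 0.17), and 4.54% of tested genes had no overlap between these groups (2.78% in differentiating cells). Within the 2 litters with both genotypes, *Kat6a*–/– minus *Kat6a*+/+ was −3.05 and −2.54 on the log2 scale. In differentiating cells the values were 23.7, 25.9, 26.6 and 18.2 CPM in the *Kat6a*+/+ libraries, 23.2, 33.1, 25.5 and 32.8 CPM in the *Kat6a*+/– libraries and 9.52, 7.76, 5.83 and 11.99 CPM in the *Kat6a*–/– libraries. *Kat6a*–/– again lay below both other groups, which overlapped each other, and the log2 fold-change was −1.78 (SE 0.18, FDR 1.22e-05), with −1.62 within each of 2 litters. The 2 conditions differed in the size of this effect (interaction 1.33, SE 0.38, FDR 0.0241, with 13.9% of 13586 genes called). The interaction comes from a fit of all 24 libraries without quality weights, so the fold-changes given for the single conditions need not subtract to it. This call was lost without *Kat6a*–/– replicate 1 in proliferating cells (0.98, FDR 0.0832) and without *Kat6a*–/– replicate 1 (1.23, FDR 0.0609) or replicate 4 (1.17, FDR 0.0555) in differentiating cells.

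*Igf2bp3* (Entrez 140488, chromosome 6, 49062144 to 49192447, minus strand), with *Igf2bp2* the most abundant early transcript in proliferating *Kat6a*+/+ cells, measured 107 to 145 CPM in the proliferating *Kat6a*+/+ libraries and 103, 115, 116 and 71.8 CPM in those of *Kat6a*–/– cells (log2 fold-change −0.17, SE 0.13, FDR 0.359). In differentiating cells it was 19.9 to 30.1 CPM in *Kat6a*+/+, 18.3 to 37.1 CPM in *Kat6a*+/– cells, and the *Kat6a*–/– libraries held 16.6, 8.65, 16.2 and 21.5 CPM, so that the groups overlapped (−0.46, SE 0.19, FDR 0.0622). Its exons shared 1685 bases with *Malsu1* on the opposite strand, and the strand setting of the counting was not given in the sources used here. *Malsu1* stayed between 9.50 and 14.5 CPM in all 6 groups. *Igf2bp1* (Entrez 140486, chromosome 11) had 1.44 and 2.66 CPM in *Kat6a*+/+ replicates 1 and 2 and none in replicates 3 and 4 of proliferating cells, and 0.792 and 0.192 CPM in 2 *Kat6a*+/– libraries. No read was found in the other *Kat6a*+/– libraries or in the 4 *Kat6a*–/– libraries (exact permutation test of *Kat6a*–/– vs. *Kat6a*+/+, two-sided p = 0.429, n = 4). In differentiating cells it held 0.489, 0.483, 0.619 and 0.621 CPM in the *Kat6a*+/+ libraries and 1.56, 0.262, 1.43 and 1.59 CPM in those of *Kat6a*–/– cells. Its log2 fold-change there was 1.17 (SE 0.38, FDR 0.0207), and 0.78 (FDR 0.361) without the quality weights. DESeq2 did not call it (FDR 0.197), nor did the fit with a term for sex (FDR 0.109). It was not called without *Kat6a*–/– replicate 1 (FDR 0.905), without *Kat6a*–/– replicate 3 (FDR 0.960) or without *Kat6a*+/+ replicate 1 (FDR 0.0787).

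The 3 nuclear factor I (NFI) genes, whose products open and activate glial genes, did not move together. *Nfix* (Entrez 18032, chromosome 8, 85426505 to 85527046, minus strand) was at 121, 93.0, 87.0 and 113 CPM in the proliferating *Kat6a*+/+ libraries, at 143, 102, 104 and 128 CPM in the *Kat6a*+/– libraries and at 231, 156, 163 and 221 CPM in the *Kat6a*–/– libraries. *Kat6a*–/– lay above both other groups, at 186.5% of the *Kat6a*+/+ mean (log2 fold-change 0.95, SE 0.15, FDR 5.90e-04), and within 2 litters the differences were 1.12 and 0.53. Over all genes, *Kat6a*–/– libraries did not overlap those of *Kat6a*+/+ in 31.3% and those of *Kat6a*+/– in 12.3%. In differentiating cells *Nfix* was 504 to 592 CPM in the *Kat6a*+/+ libraries and 375, 575, 453 and 550 CPM in those of *Kat6a*–/– cells. These overlapped, with a log2 fold-change of −0.25 (SE 0.086, FDR 0.0254) that was −0.16 (FDR 0.386) without the weights and −0.16 (FDR 0.3202) with a term for sex. Without *Kat6a*–/– replicate 1 or replicate 3 its FDR was 0.826 or 0.776, and without *Kat6a*+/+ replicate 1 or replicate 4 it was 0.0990 or 0.0575. Exons of *Nfix* shared 344 bases with *Trmt1* on the opposite strand, which was at 54.1 to 59.0 CPM in proliferating *Kat6a*–/– and 64.5 to 70.0 CPM in *Kat6a*+/+ libraries. The effect of genotype differed between conditions (interaction −1.06, SE 0.22, FDR 0.00235).

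*Nfia* (Entrez 18027, chromosome 4, 97660971 to 98007111, plus strand), the NFI gene that starts gliogenesis, was at 237, 203, 219 and 186 CPM in the proliferating *Kat6a*+/+ libraries, at 190, 193, 238 and 161 CPM in the *Kat6a*+/– libraries and at 179, 159, 151 and 156 CPM in the *Kat6a*–/– libraries. All *Kat6a*–/– libraries lay below *Kat6a*+/+, but not below *Kat6a*+/–, and the log2 fold-change was −0.35 (SE 0.094, FDR 0.0138). *Nfia* was lower in the cells in which *Nfix* and *Zbtb20* were higher. In differentiating cells it was 179 to 249 CPM in the *Kat6a*+/+ libraries and 87.6, 249, 115 and 178 CPM in those of *Kat6a*–/– cells. The weighted log2 fold-change was −0.90 (SE 0.16, FDR 4.73e-04), against −0.55 (FDR 0.151) without weights, −0.36 (FDR 0.444) without *Kat6a*–/– replicate 1 and −0.35 (FDR 0.541) without replicate 3. The low *Nfia* values were in the replicates with the highest mesenchymal marker sums. Astrocyte markers summed to 504.5, 3632, 695 and 1802 CPM in *Kat6a*–/– replicates 1 to 4, against 712 to 1400 CPM in *Kat6a*+/+, so that replicates 2 and 4 lay above and replicates 1 and 3 below the *Kat6a*+/+ range. The order of the 4 *Kat6a*–/– replicates in this sum was that of *Nfia*, and also that of *Nfix* and *Zbtb20*, and its part in these values was not tested. *Nfib* (Entrez 18028, chromosome 4, 82208410 to 82623987, minus strand), which acts in glial and neuronal maturation, measured 357 to 388 CPM in the proliferating *Kat6a*+/+ libraries and 374, 367, 367 and 276 CPM in those of *Kat6a*–/– cells (log2 fold-change −0.05, SE 0.086, FDR 0.694). In differentiating cells it was 396, 374, 363 and 414 CPM in the *Kat6a*+/+ libraries, 314, 352, 416 and 415 CPM in the *Kat6a*+/– libraries and 226, 219, 246 and 242 CPM in the *Kat6a*–/– libraries. *Kat6a*–/– lay below both other groups at 60.3% of *Kat6a*+/+ (−0.67, SE 0.082, FDR 3.62e-05), and its replicate 2 was the lowest library. Within 2 litters the difference was −0.71 and −0.75. The interaction with condition was −0.62 (SE 0.15, FDR 0.00693).

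*Zbtb20* (Entrez 56490, chromosome 16, 42696093 to 43462965, plus strand) encodes a zinc finger protein that promotes astrocyte formation. It was at 35.9, 33.1, 33.5 and 25.0 CPM in the proliferating *Kat6a*+/+ libraries, at 25.5, 44.2, 51.4 and 74.1 CPM in the *Kat6a*+/– libraries and at 107, 76.9, 77.5 and 105 CPM in the *Kat6a*–/– libraries. The *Kat6a*–/– libraries lay above both other groups at 287% of the *Kat6a*+/+ mean, and *Kat6a*+/– ranged from the level of *Kat6a*+/+ almost to that of *Kat6a*–/–. The log2 fold-change was 1.40 (SE 0.23, FDR 0.00134), and 1.43 and 1.63 within 2 litters. In differentiating cells all genotypes overlapped, at 253 to 367 CPM in *Kat6a*+/+, 266 to 399 CPM in *Kat6a*+/– cells and, for *Kat6a*–/–, 256 to 487 CPM (−0.01, SE 0.13, FDR 0.956). The genotype effect differed between conditions (interaction −1.38, SE 0.33, FDR 0.00877).

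The change from proliferating to differentiating conditions moved most members in the same direction in all 3 genotypes. In *Kat6a*+/+ NSPCs 4 early genes were lower and 2 late genes higher in differentiating cells, where 73.0% of 13586 genes were called (36.7% higher, 36.3% lower). Libraries of the conditions did not overlap in 72.0% of genes in *Kat6a*+/+, 62.2% in *Kat6a*+/– and 58.8% in *Kat6a*–/– cells. The log2 fold-changes were −7.34 for *Hmga2* (SE 1.18, FDR 1.06e-05), −2.42 for *Lin28b* (SE 0.68, FDR 0.00315), −2.08 for *Igf2bp2* (SE 0.19, FDR 3.47e-09) and −2.39 for *Igf2bp3* (SE 0.22, FDR 5.59e-09). The differentiating *Kat6a*+/+ libraries together held 30 reads of *Hmga2* and 22 of *Lin28b*. For these genes, fold-changes that use those libraries depend in part on the count added before taking logs. *Nfix* rose by 2.39 (SE 0.15, FDR 2.73e-11) and *Zbtb20* by 3.22 (SE 0.25, FDR 3.47e-10), whereas *Nfia* (0.02, FDR 0.952) and *Nfib* (0.05, FDR 0.659) were not called. The same 6 genes were called in *Kat6a*+/– cells, where 69.7% of genes were called (35.4% higher, 34.2% lower), and the directions matched. In *Kat6a*–/– cells, where 69.3% of genes were called (35.8% higher, 33.5% lower), all 6 were called as well, but *Igf2bp2* only just (−0.75, FDR 0.0496, lost in 14 of 24 fits that left out 1 library), and *Nfib* was lower (−0.57, FDR 4.28e-05). *Igf2bp1* was called higher (FDR 0.00499). With no read in any proliferating *Kat6a*–/– library, its fitted values, here and in the interaction, depend on the count added before taking logs and are no measure of size.

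**Figure D4:**
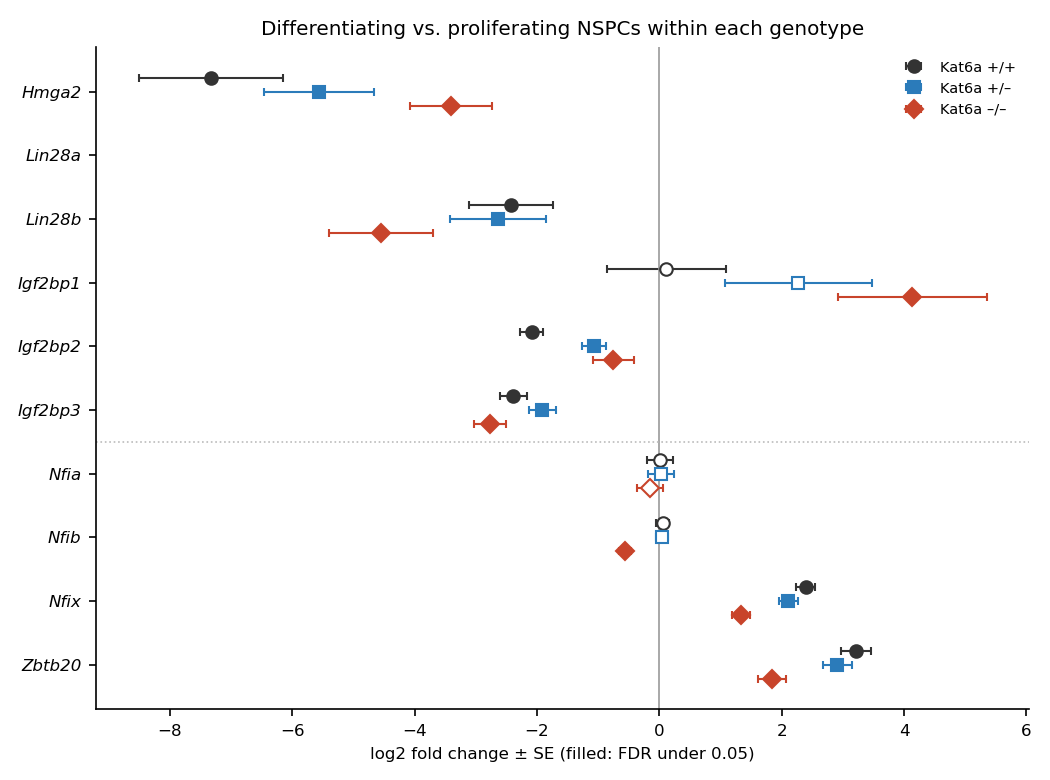
Fitted log2 fold-changes with standard errors (x axis) of differentiating against proliferating NSPCs are drawn for each member (y axis) within *Kat6a*+/+, *Kat6a*+/– and *Kat6a*–/– cells, with filled symbols at an FDR under 0.05. *Nfix* and *Zbtb20* lie at 2.39 and 3.22 in *Kat6a*+/+ and at 1.33 and 1.84 in *Kat6a*–/– cells, and *Nfib* is filled in *Kat6a*–/– cells alone.

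The differences between genotypes in this change were the interactions given above. *Nfix* and *Zbtb20* started higher in proliferating *Kat6a*–/– cells and reached overlapping ranges in differentiating cells, so that their fold-change was smaller there (1.33 and 1.84). *Nfib* was lower in differentiating than in proliferating *Kat6a*–/– cells, and *Igf2bp2* differed less between conditions in these cells. The interaction of *Hmga2* missed the FDR (3.93, SE 1.35, FDR 0.0559). It passed by edgeR (4.66, FDR 0.0138) and DESeq2 (4.63, FDR 0.00508), as did that of *Igf2bp1* (4.02, FDR 0.0879 by limma). In total 1 early gene was called with a positive and 3 late genes with a negative interaction, beside 6.37% and 7.58% of all genes. In each of the 6 embryos sequenced in both conditions *Hmga2*, *Lin28b*, *Igf2bp2* and *Igf2bp3* were lower and *Nfix* and *Zbtb20* higher in the differentiating library. The log2 change of *Hmga2* ranged from −7.63 to −1.57 and that of *Zbtb20* from 1.62 to 3.11 over these embryos.

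A difference of the mean log2 CPM of the 6 early and the 4 late genes was taken in each library as a summary. The early mean includes *Lin28a* and *Igf2bp1*, which had few or no reads, so that it depends in part on the count added before taking logs. In proliferating cells it averaged −4.44 ± 0.345 in *Kat6a*+/+, −4.89 ± 0.372 in *Kat6a*+/– and −5.85 ± 0.365 in *Kat6a*–/– NSPCs (SD, n = 4). The highest *Kat6a*–/– value, −5.55, lay below the lowest *Kat6a*+/– value, −5.26. In differentiating cells the means were −7.93 ± 0.280, −7.60 ± 0.610 and −7.53 ± 0.913, and the groups overlapped. The difference of *Kat6a*–/– from *Kat6a*+/+ was −1.40 in proliferating and 0.40 in differentiating cells, and the latter was smaller than the SD within *Kat6a*–/–. Over the members that passed the filter in each condition these differences were −1.37 and 0.70, and with an added count of 0.5 they were −1.56 and 0.27.

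**Figure D5:**
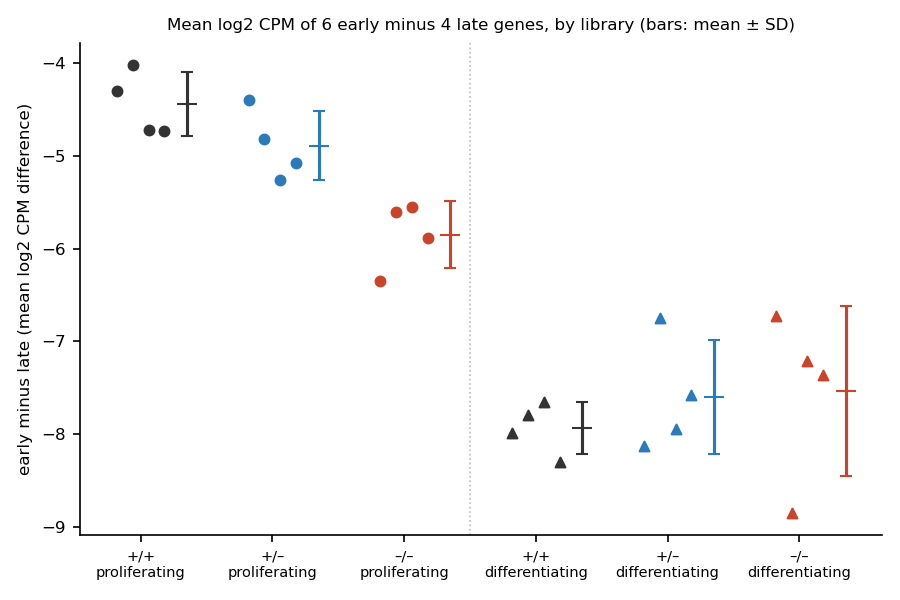
The mean log2 CPM of the 6 early genes minus that of the 4 late genes (y axis) is plotted for each of 24 libraries by genotype and condition (x axis), with the mean and SD of 4 libraries beside the points. Proliferating *Kat6a*–/– libraries lie between −6.35 and −5.55, below all *Kat6a*+/+ libraries, and the differentiating groups overlap.

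Genes that act with the early members were counted from lists, to be read against the shares of all genes called in *Kat6a*–/– vs. *Kat6a*+/+ cells. These were 30.0% in proliferating cells (16.2% higher, 13.8% lower), and 54.4% in differentiating cells or 23.2% without the weights. Among 17 other let-7 target genes, 2 were higher and 5 lower in proliferating *Kat6a*–/– vs. *Kat6a*+/+ NSPCs (median log2 fold-change −0.03). The falls included *Trim71* (17.7 CPM in *Kat6a*+/+ against 2.66 CPM, −2.86, FDR 0.0150), which encodes a ubiquitin ligase of early progenitors, *Mycn* (−1.51, FDR 0.00351) and *Hmga1* (90.7 against 34.8 CPM, −1.28, FDR 1.30e-05), the paralog of *Hmga2*. *Ccnd2*, a cyclin gene, rose by 0.54 (FDR 0.00147). In differentiating cells 4 were higher and 8 lower, and 1 and 5 without the weights. *Mycn* (15.6 against 1.70 CPM, −3.76, FDR 2.89e-05) and *Trim71* (−2.03, FDR 0.00145) fell in both fits, whereas *Ccnd1* was called higher with the weights (3.34, FDR 1.13e-04) and not without them (2.24, FDR 0.0775). These targets did not share one direction in either condition, and their counts were not tested against those shares. Of 11 microRNA maturation genes, 2 were lower in proliferating *Kat6a*–/– cells, namely *Dis3l2* (−0.47, FDR 0.00683), whose product degrades uridylated let-7 precursors, and *Drosha* (−0.21, FDR 0.0299). In differentiating cells 1 was higher and 7 lower, and none and 1 without the weights, which was *Ago1* (−0.34, FDR 0.0180). Mature let-7 was not measured, and host RNAs of its genes are no measure of it. The host RNA *Mir100hg* averaged 45.5 ± 7.87 CPM in proliferating *Kat6a*+/+ and 36.1 ± 3.00 CPM in *Kat6a*–/– cells (SD, n = 4).

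HMGA2 is known to lower expression from the INK4 locus, in part through JUNB, and *Cdkn2a* and *Cdkn2b* of this locus encode inhibitors of cell division. *Cdkn2a* averaged 11.9 CPM in *Kat6a*+/+ and 51.0 CPM in *Kat6a*–/– proliferating cells (log2 fold-change 2.23, SE 0.19, FDR 1.30e-05), and 14.1 and 169 CPM in differentiating cells (4.10, SE 0.30, FDR 2.49e-06). *Cdkn2b* was higher in both conditions as well (1.44, FDR 6.09e-04, and 2.13, FDR 2.49e-06). *Junb* was not called in proliferating cells (−0.43, FDR 0.312) and rose in differentiating cells (1.63, FDR 7.14e-05). In the differentiating *Kat6a*–/– libraries *Cdkn2a* ranged from 98.2 to 226 CPM, above the range of 7.29 to 21.1 CPM in *Kat6a*+/+, and *Hmga2* in the same *Kat6a*–/– libraries ranged from 0.314 to 12.9 CPM. Over all genes, 27.7% were called lower in differentiating *Kat6a*–/– cells (with the weights) and 13.8% in proliferating ones. All 7 cell division genes were lower in differentiating *Kat6a*–/– cells, with and without weights, and 3 were lower in proliferating cells. Their summed level was 610 to 1025 CPM in the differentiating *Kat6a*+/+ libraries and 94.8 to 242 CPM in those of *Kat6a*–/– cells. Beside 30.0% of all genes, of 8 mRNAs and signalling genes that IGF2BP and LIN28 proteins act on, 1 was higher and 2 lower in proliferating cells. *Ctnnb1* was higher (0.16, FDR 0.0424), and *Irs2* (−0.29, FDR 0.0402) and *Insr* (−0.25, FDR 0.0424), which encode insulin signalling proteins, were lower. In differentiating cells (54.4% of all genes called, 23.2% without the weights) 6 were higher, and without the weights 1 was, *Cd44* (1.48, FDR 0.00442), an adhesion receptor.

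Genes that act with the late members were counted in the same way. Of 10 gliogenic regulators tested in proliferating cells, 3 were higher and 1 lower in *Kat6a*–/–, beside 30.0% of all genes called. *Nr2f2*, which encodes a nuclear receptor of the neurogenic to gliogenic transition, rose from 2.22 to 17.6 CPM (3.18, SE 0.45, FDR 3.67e-04), *Lhx2* (0.39, FDR 0.00992) and *Olig1* (0.26, FDR 0.0218) were higher, and *Stat3*, the effector of astrocyte-inducing cytokines, was lower (−0.44, FDR 0.0144). In differentiating cells 1 was higher, again *Nr2f2* (2.54, FDR 0.00381), and 7 were lower, or 3 without the weights (54.4% and 23.2% of all genes called), with *Zeb2* (−0.72, FDR 3.67e-06) and *Sox8* (−0.85, FDR 0.00300) lower in both fits. *Sox9*, which acts with NFIA, was called lower with the weights (−0.92, FDR 0.00270) and not without them (−0.53, FDR 0.3197).

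Among glial genes with NFI sites, 4 of 5 tested were higher in proliferating *Kat6a*–/– cells, beside 16.2% of all genes. The fifth, *Aldh1l1*, a folate enzyme gene of astrocytes, averaged 4.48 CPM against 15.9 CPM in *Kat6a*+/+ cells and was not called (−1.55, FDR 0.110). *Gfap*, an astrocyte intermediate filament gene, averaged 3.16 CPM against 0.246 CPM in *Kat6a*+/+ cells (3.51, SE 0.73, FDR 0.00379), *S100b* 15.9 against 3.70 CPM (2.23, FDR 2.85e-05), *Slc1a3*, a glutamate transporter gene, 1299 against 642 CPM (0.91, FDR 0.00511) and *Fabp7* 1401 against 1028 CPM (0.44, FDR 0.0236). Astrocyte markers summed to 109 to 147 CPM in the proliferating *Kat6a*+/+ libraries and 197 to 308.5 CPM in those of *Kat6a*–/– cells. Most of this sum was *Aldoc* (105 against 229.5 CPM on average), and 3 of the 4 tested markers were higher. *Aldh1l1* pointed the other way. The part of astrocyte markers in the values of *Nfix* and *Zbtb20* was not tested. In differentiating cells 1 of 6 glial genes with NFI sites was higher and 4 lower (54.4% of all genes called), and without the weights 1 was higher, *S100b* (2.51, FDR 0.00114), and none lower (23.2% of all genes called). *Aqp4*, the astrocyte water channel gene, ranged from 13.9 to 829 CPM among the differentiating *Kat6a*–/– libraries and from 78.2 to 142 CPM in *Kat6a*+/+, so that its fold-change of −1.61 (FDR 0.0433) became −0.17 (FDR 0.927) without the weights. Of the 3 genes that NFIA and SOX9 activate together, *Mmd2* (1.33, FDR 0.00372) and *Zcchc24* (0.33, FDR 0.00288) were higher and *Apcdd1* was not called (−0.68, FDR 0.117) in proliferating cells. In differentiating cells *Apcdd1* was called lower with the weights (−1.07, FDR 0.00124) and not without them (FDR 0.0624), and *Mmd2* (−1.10, FDR 0.0831) and *Zcchc24* (−0.08, FDR 0.340) were not called.

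The genes whose log2 CPM followed a member most closely over all 24 libraries were taken by Pearson's r. These were *Ccnd1* (r = 0.983), *Cdr2* and *Synj2* (both 0.979) for *Hmga2*, *Zfp488* (0.925), *Tcf12* (0.891) and *Rps6ka6* (0.89) for *Lin28b*, *Katnal1* (0.88), *Amz2* (0.879) and *Cntrl* (0.859) for *Nfia*, and *Srgap3* (0.983), *Mt3* (0.982) and *Slc16a9* (0.981) for *Zbtb20*. The libraries share condition, genotype and depth, and for *Hmga2* and *Zbtb20* the split between conditions spans most of the range. After removal of the group means, the largest correlation between members was that of *Hmga2* and *Nfia* (r = −0.704 over 24 libraries). *Nfia* spread most in differentiating *Kat6a*–/– cells (SD 71.8 CPM, against 12.4 to 31.9 CPM in the other groups). There *Hmga2* was at 12.9, 0.314, 8.10 and 1.40 CPM where *Nfia* was at 87.6, 249, 115 and 178 CPM. This r thus leans on that group, and r was not taken within single groups. *Igf2bp3* and *Nfib* had r = 0.652. *Hmga2* and *Nfib* had r = 0.086.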

How the data were processed

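RNA of 24 NSPC cultures was measured by stranded, poly(A)-selected RNA sequencing. Per the labels and the study's methods, the authors aligned reads to mm39 with Rsubread, counted them per gene with featureCounts on RefSeq genes and deposited raw counts. Software versions and the strand setting are not given in the sources used here. No column of other samples was present (0). The members and gene lists were chosen with earlier results of these data known.

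Genes were limited to protein-coding genes passing filterByExpr, without *Xist* and Y-linked genes, and counts were TMM-normalised (edgeR 4.0.16). Proliferating libraries were fitted with limma 3.58.1 (R 4.3.3) by voom with litter as a random block, and differentiating libraries by limma-trend on log2 CPM (prior count 2) with quality weights. All 24 libraries were fitted together by voom with litter as a random block, for the change with condition and its interaction with genotype. The 6 embryos sequenced in both conditions were not paired in this fit. FDR was taken over all tested genes at 0.05. Members below the filter were compared by exact permutation tests. All 10 members are named, and of each other list up to 4 called genes with the largest fold-change in *Kat6a*–/– vs. *Kat6a*+/+ cells (lists of 3 whole), and for 4 members the 3 genes most like them. Alternatives were edgeR's quasi-likelihood test, DESeq2 1.42.0, other scaling, filters, blocks, a term for sex, no weights and leaving out each library. The fits were tested on simulated data. Totals of 7826660 to 40838203 counts set the precision. Replicates were embryos, some from shared litters.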

Additional observations from a re-analysis of the deposited data

Results flagged for a closer look

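In 3 of 48 groups of 4 libraries 1 library stood apart from the others by Dixon's test, and chance flags about 1 in 20 groups. *Nfib* was at 276 CPM in proliferating *Kat6a*–/– replicate 4, against 367 to 374 CPM in the others. *Hmga2* was at 8.65 CPM in differentiating *Kat6a*+/– replicate 2, against 0.177 to 0.822 CPM in the others, and this library also had the highest mesenchymal marker sum of its genotype. *Igf2bp1* was at 0.262 CPM in differentiating *Kat6a*–/– replicate 2, against 1.43 to 1.59 CPM in the others.

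The *Kat6a*–/– vs. *Kat6a*+/+ difference was itself different between conditions by the interaction term (limma) for 4 members. On the log2 scale this difference, differentiating minus proliferating, was 1.33 for *Igf2bp2*, −0.62 for *Nfib*, −1.06 for *Nfix* and −1.38 for *Zbtb20*. These values come from the fit of all 24 libraries without quality weights, and the fold-changes of the single conditions, fitted separately, need not subtract to them. RNA kit and condition cannot be told apart in these values.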

How the results depend on the processing

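In proliferating cells, the 5 calls of *Kat6a*–/– vs. *Kat6a*+/+ were made under every alternative, and 3 to 5 calls against *Kat6a*+/– without 1 library. Over all genes, calls against *Kat6a*+/+ ranged from 1936 to 4007 in these fits. Those against *Kat6a*+/– ranged from 921 to 2331 without 1 library. In differentiating cells, the 6 calls against *Kat6a*+/+ became 2 by edgeR, 3 by DESeq2, 2 without quality weights and 2 with litter as a fixed term, and ranged from 2 to 7 without 1 library. *Igf2bp2* and *Nfib* were among the calls in each of these. Over all genes, the 7258 calls became 3244, 4076, 3097 and 1785 in the same order, and 939 to 9505 without 1 library. The 5 calls against *Kat6a*+/– became 3 by edgeR, DESeq2, without weights and without the filter, 2 with a term for sex and 1 with litter as a fixed term, and ranged from 1 to 7 without 1 library. Over all genes, the 5007 calls became 1656, 2621, 1616, 3031, 1605 and 386 in the same order, and 243 to 7397 without 1 library. Calls between conditions numbered 6 in *Kat6a*+/+ and in *Kat6a*+/– and 7 to 8 in *Kat6a*–/– cells without 1 library, and 3 to 6 for the interaction. Over all genes, these ranges were 9277 to 10224, 8954 to 9828, 8853 to 9509 and 1276 to 3275, in this order. The early minus late difference ranged from −1.5 to −1.24 in proliferating and from 0.13 to 0.83 in differentiating cells. The causes were not tested.

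Values that changed sign were not called in either fit. In *Kat6a*–/– vs. *Kat6a*+/+ cells these were proliferating *Nfib* (0.03 with litter as a fixed term) and differentiating *Zbtb20* (0.13 by edgeR, 0.15 by DESeq2, 0.00 with DESeq2 size factors, 0.01 without the filter, 0.10 without weights, 0.12 with litter as a fixed term, 0.07 with the replicate block). In *Kat6a*+/– vs. *Kat6a*+/+ proliferating cells they were *Hmga2* (0.01 with sex, 0.00 with the replicate block), *Lin28b* (0.18 with sex), *Igf2bp3* (0.04) and *Nfib* (0.07, both with litter as a fixed term). In differentiating cells they were *Igf2bp1* (0.66 by edgeR, 0.69 by DESeq2, 0.01 without the filter, 0.30 without weights, 0.28 with sex) and *Zbtb20* (−0.03 with sex). *Nfix* against *Kat6a*+/– was 0.03 with sex. Between conditions in *Kat6a*+/+ they were *Igf2bp1* (−1.02 by edgeR, −0.89 by DESeq2, −0.01 with sex, −0.14 with the replicate block) and *Nfia* (−0.01 without the filter).

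Leaving out 1 library changed the sign of values that were not called with all libraries. In *Kat6a*–/– vs. *Kat6a*+/+ cells the ranges were −0.09 to 0.02 for proliferating *Nfib* and −0.12 to 0.38 for differentiating *Zbtb20*. In *Kat6a*+/– vs. *Kat6a*+/+ proliferating cells they were −0.17 to 0.08 (*Hmga2*), −0.34 to 0.10 (*Lin28b*), −0.17 to 0.00 (*Igf2bp3*) and −0.05 to 0.03 (*Nfib*), and in differentiating cells −0.04 to 2.16 (*Hmga2*), −0.30 to 0.36 (*Igf2bp1*), −0.09 to 0.63 (*Igf2bp3*), −0.16 to 0.02 (*Nfia*) and −0.22 to 0.05 (*Nfib*). Against *Kat6a*+/– they were −0.17 to 0.05 (*Igf2bp3*) and −0.09 to 0.04 (*Nfib*) in proliferating and −0.24 to 0.00 (*Nfix*) and −0.41 to 0.07 (*Zbtb20*) in differentiating cells. Between conditions they were −0.68 to 1.14 (*Igf2bp1*) and −0.03 to 0.13 (*Nfia*) in *Kat6a*+/+, −0.04 to 0.14 (*Nfia*) and −0.01 to 0.12 (*Nfib*) in *Kat6a*+/–, −0.43 to 0.08 (*Nfia*) in *Kat6a*–/– cells and −0.48 to 0.03 for the interaction of *Nfia*.

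Replicate numbers did not pair the libraries: same-numbered deviations correlated at −0.468 to 0.481, above 0.1 in 5 of 24 pairs. With the replicate block, calls against *Kat6a*+/+ were 5 in proliferating and 6 in differentiating cells, 4 against *Kat6a*+/– in each, and 4 for the interaction. Over all genes, these fits called 3604 and 7211 against *Kat6a*+/+, 1625 and 4203 against *Kat6a*+/–, and 1792 for the interaction.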
